A study of Mus musculus with 11 samples.

Results

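Blood vessel transcripts were followed in sorted astrocytes through 10 genes, of 24421 entries per sample. The 8 endothelial genes were Cldn5, Pecam1, Slco1a4, Ly6c1, Itm2a, Flt1, Kdr and Tek, and the 2 pericyte genes were Pdgfrb and Vtn. They were taken by name as transcripts of brain endothelium and pericytes, and all 10 passed the filter on low counts. The samples were FACS-isolated cells of the olfactory bulb (OB, n = 3), hippocampus (HC, n = 3), cortex (CX, n = 2) and brainstem (BS, n = 3). All of the mice were 16 weeks old, on a C57BL/6 background, untreated as far as the labels say, and carried a BAC transgene in which Aldh1l1 sequences drive eGFP. Males and females were both used. Sorting selected eGFP+ cells, so that endothelial cells and pericytes were not the cells to be collected. The labels do not say whether samples of a region came from separate animals, and p-values then measure the spread between these samples, which may be technical.

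Brain capillaries are lined by endothelial cells whose tight junctions and transporters form the blood-brain barrier. Pericytes sit in the basement membrane on the outer face of the endothelium, and astrocyte endfeet surround both. Endothelial cells respond to VEGF and angiopoietin ligands through the receptors encoded by Flt1, Kdr and Tek, and they release PDGF-B, which recruits and keeps pericytes through the receptor encoded by Pdgfrb.

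Sequenced depth set the counting error of these values. Each value is a normalized read count, which is the number of reads on a gene scaled by the size factor of its library. The libraries held from 2830746 to 14151670 gene reads each, and 3 reads corresponded to values between 1.10 and 6.31. Intervals on counts cover counting error only. The astrocyte identity was checked with 8 markers, which summed to between 93288 and 630026, with Aldh1l1 itself between 542 and 1317. This sum rested largely on Slc1a2, with values between 61764 and 541892. In the first BS sample, where the astrocyte sum was lowest, 6 choroid plexus markers summed to more than it, at 237056. The 8 endothelial genes summed to between 425 and 3362. In bulk samples such as these, fewer cells of a type and less RNA per cell cannot be told apart.

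The 10 genes lie on 8 chromosomes of GRCm38 in the GENCODE annotation, and none overlaps another annotated gene. Cldn5 is a gene of 1 exon (chromosome 16, 18776847 to 18778262), whereas Flt1 (chromosome 5, 147561604 to 147726011) and Kdr (chromosome 5, 75932827 to 75978458) have 30 exons each in their longest coding transcript. Tek spans 94739289 to 94874976 on chromosome 4. Pecam1 (106654217 to 106750628) and Vtn (78499091 to 78502324) are both on chromosome 11, Slco1a4 is on chromosome 6 (141805440 to 141856199), Ly6c1 on chromosome 15 (75044018 to 75048830) and Itm2a on the X chromosome (107397099 to 107403376). Reads of 75 bases can be shared between related genes. Of the 75-base windows of the Ly6c1 transcript, 23.2% also occur in other genes, chiefly Ly6c2 and Ly6a, and 1.76% of those of Slco1a4 occur in Slco1a5, Slco1a1 and other relatives. The values of these 2 genes are therefore uncertain, by an amount that was not measured. The other 8 genes share no window.

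Endothelial promoters are known targets of ETS factors such as Erg and Fli1, whose binding sites have a GGAA core. The 250 bases before the RefSeq start (GRCm38.p6) are given for 4 genes, because Flt1 and Kdr are the VEGF receptors, Cldn5 was the endothelial gene with the weakest shared variation described below, and Vtn was the pericyte gene that varied with the endothelial genes. Capitals mark GGAA, read on either strand. The stretches are chr16:18776597-18776846 (+ strand) for Cldn5, chr5:147726012-147726261 (- strand) for Flt1, chr5:75978456-75978705 (- strand) for Kdr and chr11:78498870-78499119 (+ strand) for Vtn.
Cldn5: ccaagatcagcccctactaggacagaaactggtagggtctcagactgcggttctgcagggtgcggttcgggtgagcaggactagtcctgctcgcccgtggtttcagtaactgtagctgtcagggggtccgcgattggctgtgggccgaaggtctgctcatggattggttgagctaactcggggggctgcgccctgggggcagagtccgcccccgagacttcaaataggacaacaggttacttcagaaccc
Flt1: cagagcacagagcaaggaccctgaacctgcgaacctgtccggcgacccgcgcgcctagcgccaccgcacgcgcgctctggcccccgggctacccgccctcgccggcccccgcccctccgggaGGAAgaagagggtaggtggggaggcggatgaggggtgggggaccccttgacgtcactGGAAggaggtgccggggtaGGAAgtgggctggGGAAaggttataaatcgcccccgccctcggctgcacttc
Kdr: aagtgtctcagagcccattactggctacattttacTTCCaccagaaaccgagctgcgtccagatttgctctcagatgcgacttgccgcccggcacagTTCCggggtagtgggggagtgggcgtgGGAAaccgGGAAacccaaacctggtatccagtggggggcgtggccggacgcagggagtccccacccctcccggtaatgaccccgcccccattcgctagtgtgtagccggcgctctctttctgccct
Vtn: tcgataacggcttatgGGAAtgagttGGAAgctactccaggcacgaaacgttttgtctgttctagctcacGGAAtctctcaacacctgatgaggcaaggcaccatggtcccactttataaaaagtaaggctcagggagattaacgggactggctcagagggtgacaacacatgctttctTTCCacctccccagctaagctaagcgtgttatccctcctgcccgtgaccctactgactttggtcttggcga

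Cldn5 had no GGAA in this stretch, and Flt1, Kdr and Vtn had 4 each. Of the 8 genes with a promoter sequence here, among which Ly6c1 has 2 starts, 7 held GGAA, which 93.4% of 32851 RefSeq promoters also hold. The longer AGGAAG, which contains GGAA, was in 4 of 8 against 29.5% of all promoters (both strands). CGGAAG and TGATAA were in 0 of 8, against 13.6% and 7.94% of all, and AACAAT was in 2 of 8 against 9.42% (both strands). TATAAA on the strand of the gene was in 3 of 8 (Ly6c1, Flt1 and Vtn) against 7.59%. Ly6c1 was counted if either of its 2 starts held the letters, whereas the shares of all are per promoter. AGGAAG and TATAAA were each at a single Ly6c1 start.

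Cldn5 encodes claudin-5, the sealing protein of endothelial tight junctions. Its normalized read counts were 77.1, 38.7 and 23.2 in the OB samples (replicates 1, 2 and 3), 82.5, 63.9 and 9.91 in the HC, 25.1 and 44.5 in the CX pair, and 44.2, 8.01 and 56.8 in the BS. The regions overlapped fully, and the lowest value rested on 4 reads, with an exact Poisson 95% interval of 2.18 to 20.5. The CX mean was lowest at 34.8 ± 13.7 (SD, n = 2) and the HC mean highest at 52.1 ± 37.7 (SD, n = 3), a ratio of 1.497.

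Pecam1, an adhesion molecule of endothelial cell contacts, had 96.6, 97.9 and 30.2 in the OB, 358, 142 and 77.8 in the HC, 37.7 and 184 in the CX pair, and 126, 140.2 and 246 in the BS. The high sample was the first HC replicate and the lows were the third OB replicate and the first CX replicate. Slco1a4 encodes an organic anion transporter of the barrier. It had values of 384, 293 and 109 in the OB, 880.1, 554 and 265 in the HC, 106 and 587 in the CX pair, and 838, 553 and 1004 in the BS. Every BS value of Slco1a4 lay above every OB value, and both HC and CX overlapped the other regions. Its region means ran from 262 ± 140.1 (SD, n = 3), the OB mean, to 798 ± 228 (SD, n = 3), the BS mean, which is 3.04-fold apart and the widest gap among the 10 genes.

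Ly6c1, a GPI-anchored surface protein of the Ly6 family, varied most between replicates. It had 175, 82.9 and 32.9 in the OB, 359, 91.3 and 17.98 in the HC, 33.9 and 138 in the CX pair, and 196, 160.3 and 90.5 in the BS. The HC samples alone differed by 19.9-fold. Its close relative Ly6c2 was at 15.6 or below in every sample. Itm2a, a membrane protein gene enriched in brain endothelium, had 263, 203 and 90.0 in the OB, 202, 149.8 and 76.7 in the HC, 84.2 and 248 in the CX pair, and 246, 236 and 461 in the BS. Itm2a had the narrowest range of the 8 endothelial genes, 6.01-fold over all samples, and its BS values lay above all HC values and overlapped those of the OB and CX.

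**Figure D1:**
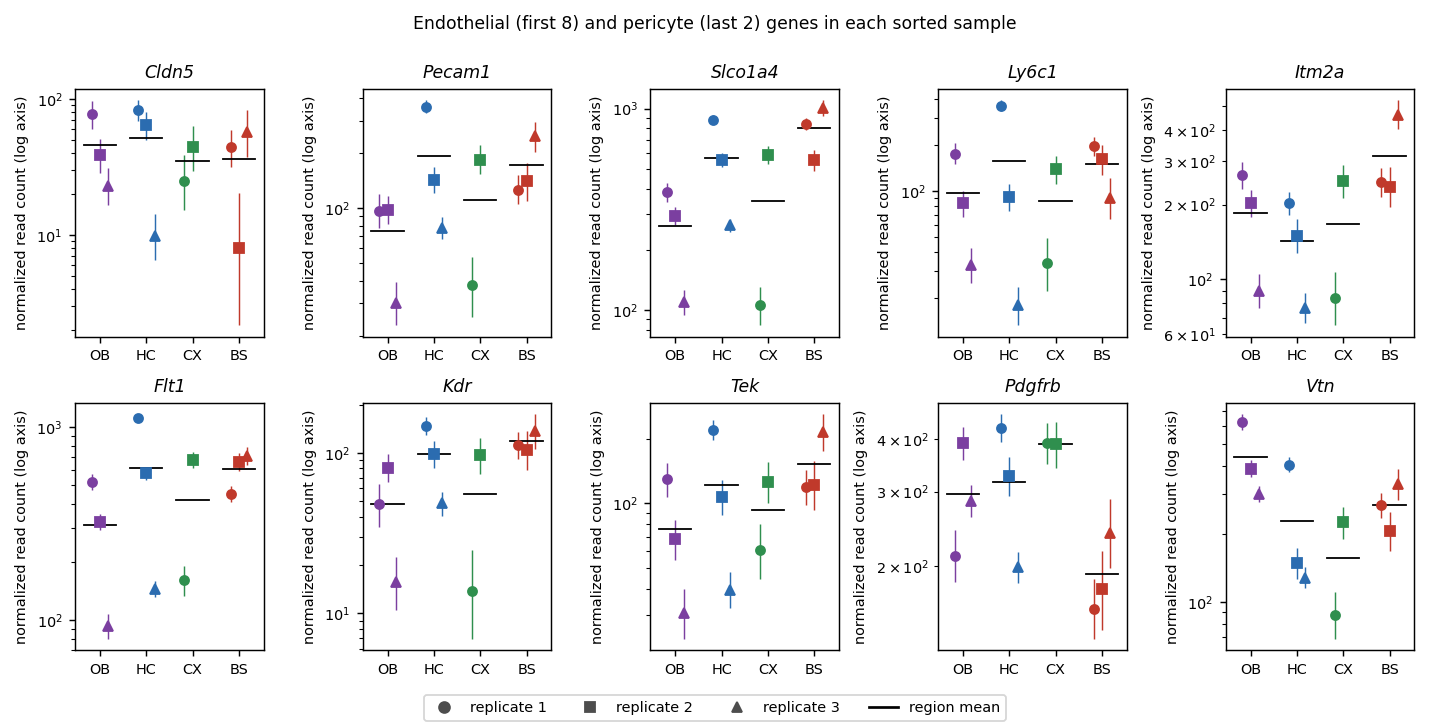
Normalized read counts (log axes) of the 8 endothelial genes and of Pdgfrb and Vtn in each OB, HC, CX and BS sample. Points are samples (shape gives the replicate), vertical bars are exact Poisson 95% intervals for counting error only and horizontal lines are region means, and for each of the first 8 genes the third OB, the third HC and the first CX samples are the lowest of their region.

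The receptors Flt1, Kdr and Tek had the same lowest samples in the OB, HC and CX. Flt1, the VEGF receptor that can act as a decoy, had 520.1, 323 and 93.2 in the OB, 1112, 575 and 145 in the HC, 161 and 675 in the CX pair, and 450.0, 661 and 709 in the BS. Kdr, the main signalling receptor for VEGF, had 47.8, 80.5 and 15.6 in the OB, 147, 97.7 and 48.4 in the HC, 13.8 and 96.6 in the CX pair, and 112, 104 and 137 in the BS. All BS values of Kdr were above all OB and CX values, and those of the HC overlapped each region. Tek, the angiopoietin receptor, had 129, 67.9 and 30.7 in the OB, 221, 107 and 39.6 in the HC, 60.3 and 126 in the CX pair, and 119, 122 and 215 in the BS, with overlap between all regions.

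Pdgfrb, the PDGF receptor of pericytes, had 212, 390.0 and 285 in the OB, 424, 326 and 199 in the HC, 391 and 388 in the CX pair, and 159, 176 and 239.9 in the BS. Both CX values were above all BS values, and the OB and HC overlapped both. The CX mean was 389 ± 1.99 (SD, n = 2), that of the BS 192 ± 42.7 (SD, n = 3). Vtn encodes vitronectin, an adhesive glycoprotein that brain pericytes secrete. It had 627, 390.0 and 301 in the OB, 407, 149 and 128 in the HC, 87.9 and 225 in the CX pair, and 268, 206 and 333 in the BS. The 3 OB values exceeded both CX values, and the first HC replicate and the third BS replicate reached into the OB range.

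Levels of different genes were compared per kilobase of the longest annotated coding transcript, over all samples. Vtn had the highest mean level at 163 per kb, followed by Ly6c1 at 148, Slco1a4 at 133, Itm2a at 118, Flt1 at 71.5 and Pdgfrb at 53.5. Pecam1 (40.6), Cldn5 (30.4) and Tek (24.2) were lower, and Kdr was lowest at 13.8 per kb. Kdr had the lowest mean level per kb in each region.

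Whether these genes mark a region was asked by setting each region against the other regions pooled. Calls were made from limma on log2(value + 1), and required an unadjusted p under 0.01, more than a 1.5-fold difference, and values above 5 in 2 or more replicates of some region. In the OB, limma, edgeR and DESeq2 each called 0 of the 10 genes, where 8.04%, 8.19% and 10.7% of 13875 genes tested were called. Vtn alone had an unadjusted p under 0.05 in the OB with limma, as did 17.6% of all genes. Its OB mean of 439 ± 168 (SD, n = 3) compared with 225.5 in the 8 other samples, a log2 fold change of 1.04 (95% interval 0.19 to 1.90, adjusted p = 0.1758 from limma). The first HC replicate weighed on this comparison, and without it Vtn was called with a log2 fold change of 1.19. Without the first CX replicate, Slco1a4 and Kdr were called as lower in the OB, Slco1a4 at -1.42.

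None of the endothelial genes passed the test in the BS or the OB with limma. Of the 8, 7 had a positive log2 fold change in the BS and Cldn5 a negative one, with a median of 0.84 against 0.02 over all genes tested. In the OB the same 7 were negative, with a median of -0.82, also against 0.02 over all genes. These comparisons share samples, the medians were not tested, and limma called 0 of the 10 genes in the BS, where 9.03% of all genes were called. At an unadjusted p under 0.05 the BS count was 3 of 10 (Slco1a4, Itm2a and Pdgfrb) against 21.3% of all genes. Slco1a4 had a log2 fold change of 1.29 in the BS (95% interval 0.10 to 2.48, adjusted p = 0.1943 from limma), and Itm2a one of 1.01 (0.15 to 1.86, adjusted p = 0.1608). Without the first HC replicate Slco1a4 was called as higher in the BS.

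Pdgfrb ran the other way. The log2 fold change of Pdgfrb in the BS was -0.74 (95% interval -1.27 to -0.20), with an unadjusted p of 0.01021 and an adjusted p of 0.1037 from limma. This was not shared by the 10 other pericyte genes described below. Their summed level had its highest region mean in the BS, at 924 ± 257 (SD, n = 3). That mean was 637 in the OB, 660 in the HC and 713 in the CX, with overlap between samples, and the sums were not tested. The p-value of Pdgfrb lay at the threshold of the call. With edgeR and DESeq2, which each called 1 of the 10 genes in the BS, Pdgfrb was called as lower, where 8.12% and 10.3% of all genes were called. With limma it was called when no filter was set on low counts, under TMM scaling or when each region had its own mean, and after leaving out the first OB, the third HC or the third BS replicate (log2 fold changes of -0.82, -0.83 and -0.91).

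No gene stood out in the HC or the CX. With limma, edgeR and DESeq2, 0 of 10 were called for the HC, where 1.28%, 1.35% and 3.02% of all genes were called, and 0 of 10 for the CX, where 2.77%, 2.13% and 4.26% were. At an unadjusted p under 0.05 from limma, the HC count was also 0 of 10 and the CX count 0 of 10, against 5.69% and 9.89% of all genes. The intervals were wide. For the endothelial genes in the CX they reached from -2.64 (Kdr) to 1.63 (Cldn5), so that differences of several-fold lay within them.

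**Figure D2:**
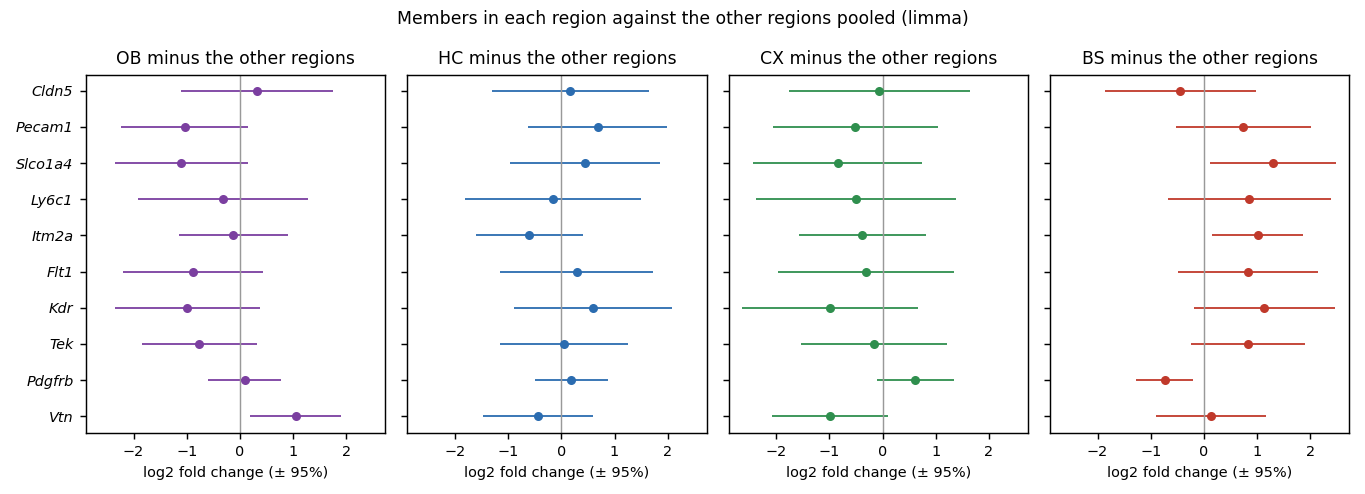
Log2 fold change of each gene in the OB, HC, CX and BS against all samples from elsewhere, from limma on log2(value + 1). Points are estimates and bars are 95% intervals from the moderated t distribution, and the intervals that lie off 0 are those of Vtn in the OB (0.19 to 1.90) and of Slco1a4, Itm2a and Pdgfrb in the BS.

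A test of any difference among the 4 regions called 0 of 10 genes at an adjusted p under 0.05 with limma, edgeR and DESeq2, which called 16.5%, 14.9% and 22.1% of all genes. At an unadjusted p under 0.05 limma counted 3 of 10 (Slco1a4, Pdgfrb and Vtn) against 28.7% of all genes. Between the 6 pairs of regions, 1 of 60 gene comparisons passed an adjusted p of 0.05. Pdgfrb was 2.03-fold higher in the CX than in the BS as a ratio of means (log2 fold change 1.04, standard error 0.32, adjusted p = 0.04755 from limma), in a pair in which 10.9% of all genes passed. The adjusted p was 0.05963 with edgeR and 0.03314 with DESeq2. The pair no longer passed with limma after leaving out the third OB, the second HC, either CX, the first BS or the second BS replicate. In that pair edgeR passed 0 of 10 (8.88% of all genes) and DESeq2 1 of 10 (13.4%), and limma had 3 of 10 (Slco1a4, Kdr and Pdgfrb) at an unadjusted p under 0.05 (24.3% of all genes).

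In the 5 other pairs limma passed 0 of 10 genes each, as did edgeR. The shares of all genes that limma passed were 7.11% between OB and HC, 4.91% between OB and CX, 15.0% between OB and BS, 1.23% between HC and CX and 4.63% between HC and BS. DESeq2 passed Vtn as higher in the OB than in the CX (adjusted p = 0.04242, with 7.06% of all genes passing), where the adjusted p from limma was 0.07499. At an unadjusted p under 0.05 limma counted 1 of 10 (Vtn) between OB and HC (18.4% of all genes) and again between OB and CX (16.3%), 2 of 10 (Slco1a4 and Kdr) between OB and BS (27.3%), 2 of 10 (Itm2a and Pdgfrb) between HC and BS (16.1%), and 0 of 10 between HC and CX (12.4%). In the order of region means, no neighbouring regions differed for any of the 10 genes in this test.

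Replicates accounted for more of the variance than regions in each of the 8 endothelial genes. Their standard deviation within regions, on the log2 scale, had a median of 1.04 and ran from 0.76 (Itm2a) to 1.44 (Ly6c1), against a median of 0.45 over all genes tested. Among the 7411 genes tested whose mean value lies within the range of these 10 genes, 3.0% had a standard deviation over 1. Counting error was smaller than this spread by between 4.05-fold (Cldn5) and 15.1-fold (Flt1). Pdgfrb, at 0.41, was closer to the typical gene, and Vtn stood between at 0.69. The share of variance between regions was 29.3% as a median over the 8 endothelial genes, 54.9% for Pdgfrb and 50.1% for Vtn, against 43.9% over all genes.

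Replicates of a region stood in like positions in most of the endothelial genes. The third OB replicate and the third HC replicate were the lowest of their region, and the first CX replicate was below the second, for 8 of 8 endothelial genes. Each of these positions was held by 33.2%, 34.3% and 49.8% of the genes tested, and all of them together by 9.45%. The first HC replicate was the highest HC sample for 8 of 8, as for 35.5% of all genes, the first OB replicate was the highest OB sample for 6 of 8 (33.0% of all genes), and the third BS replicate was the highest BS sample for 7 of 8, Ly6c1 being the exception, as for 30.7% of all genes. All of these positions were picked from the values of these 8 genes. The counts for the 8 therefore describe them and are not a test, and the shares are not chance rates for them. Summed over the 8 endothelial genes, the values were 1693, 1187 and 425 in the OB, 3362, 1781 and 680.2 in the HC, 521 and 2099 in the CX pair, and 2131, 1985 and 2919 in the BS. The sum varied up to 4.94-fold within a region (HC), and the largest ratio between region means was that of the BS (2345) to the OB (1101).

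**Figure D3:**
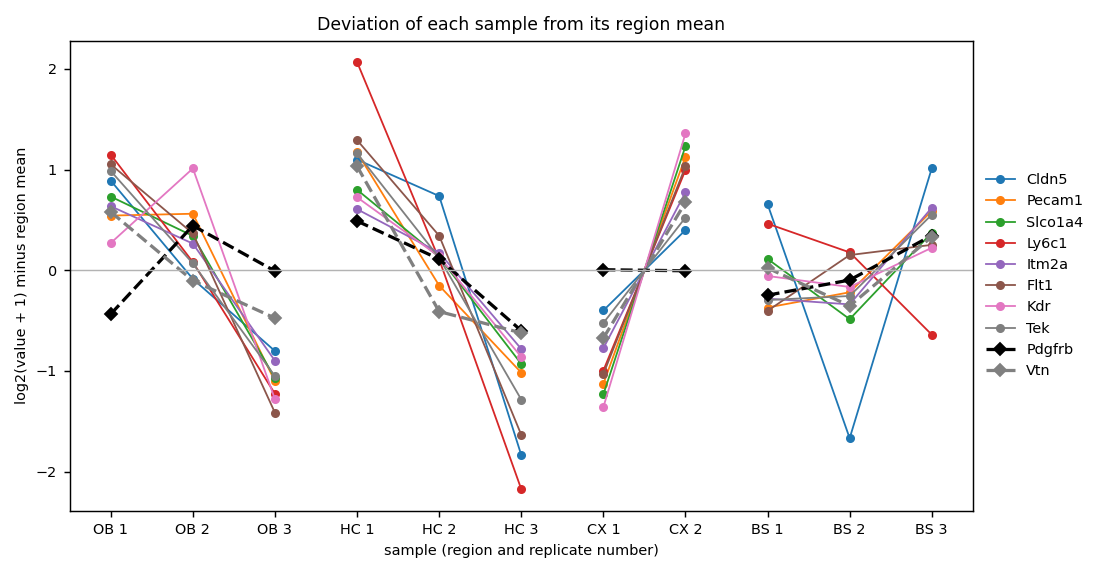
Deviation of log2(value + 1) from the region mean in each sample, for the 8 endothelial genes (solid lines), Pdgfrb (dashed, black) and Vtn (dashed, grey). Lines join replicates of a region only to guide the eye, and the endothelial lines fall together in the third OB and HC samples while Pdgfrb stays near 0 in the third OB and both CX samples.

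After region means were removed, pairs of endothelial genes correlated over the 11 samples with a median Pearson r of 0.87, between 0.56 and 0.96 over 28 pairs. The genes of a pair share their libraries, so these values are descriptions. Set against the mean of the other endothelial genes, Flt1 had an r of 0.96, Slco1a4 0.96, Itm2a 0.95, Tek 0.95, Pecam1 0.95, Kdr 0.86, Ly6c1 0.85 and Cldn5 0.73. Spearman's rho ran from 0.78 (Cldn5) to 0.95 (Slco1a4 and Flt1). Without the 2 samples farthest from the median, r was between 0.54 (Cldn5) and 0.96 (Slco1a4).

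The pericyte genes parted in this respect. Vtn followed the endothelial mean, with an r of 0.90 and a rho of 0.93 over 11 samples and an r of 0.92 without the 2 farthest samples. Pdgfrb had an r of 0.46 and a rho of 0.51, and an r of 0.23 without those samples. In the CX, where every endothelial gene differed between the samples by 1.77-fold or more, Pdgfrb differed by 1.01-fold. Pdgfrb and Vtn had an r of 0.34 with each other.

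For 7 of the 8 endothelial genes, the share of the endothelial sum varied less over the samples (between 1.58-fold and 4.04-fold) than the sum itself (7.91-fold). Flt1 made up between 21.1% and 33.3% of it and Slco1a4 between 20.2% and 39.3%. The OB share of Itm2a was 17.9% ± 2.91 (SD, n = 3) and its HC share 8.57% ± 2.63 (SD, n = 3). Cldn5 was the exception, from 0.404% to 5.45%, with its lowest share in the sample with 4 reads. Divided by the endothelial sum, Vtn was 0.370, 0.329 and 0.709 in the OB samples and between 0.0836 and 0.189 in all the others, with no overlap. The ratio of Pdgfrb to the sum was 0.0745, 0.0888 and 0.0822 in the BS, below every other sample, of which the first CX replicate was highest at 0.749. These ratios were formed after the values were seen and were not tested.

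Depth moved with the endothelial values. The library with the most reads was the lowest endothelial sample in the OB, HC and CX, and the library with the fewest reads was the highest in the BS. With region means removed, the endothelial mean had an r of -0.72 with log2 reads on genes (rho -0.58, r of -0.69 without the 2 samples farthest in reads, n = 11). Of all genes tested, 4.06% had a lower r with reads, and the median was -0.01. Single endothelial genes had an r between -0.81 (Flt1) and -0.54 (Cldn5), Vtn -0.46 and Pdgfrb -0.42, the last reaching 0.07 without the 2 samples. The part of depth in the shared variation was not tested.

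Markers of other cell types moved with the endothelial genes too. Of 7 microglial markers (Cx3cr1, P2ry12, Tmem119, Csf1r, C1qa, Ptprc and Itgam), 7 were lowest in the same OB, HC and CX samples, as were 9.45% of all genes. An r over 0.7 with the endothelial mean was found for 6 of the 7, against 6.46% of all genes. The summed level of the microglial markers was 2519, 2909 and 1008 in the OB, 3595, 3917 and 1323 in the HC, 1691 and 2116 in the CX pair, and 1452, 1008 and 2227 in the BS. No microglial marker was at 0 in any sample, and P2ry12 was called as lower in the BS (254 against 583, adjusted p = 0.02694 from limma), where 9.03% of all genes were called. Of 8 astrocyte markers, 0 followed the low samples, and their median r was -0.47. Choroid plexus markers, which ranged from 66.3 to 237056 as a sum, had a median r of -0.05, and oligodendrocyte (0.59) and neuron markers (0.59) lay between. What part these cell types had in the endothelial values was not tested.

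**Figure D4:**
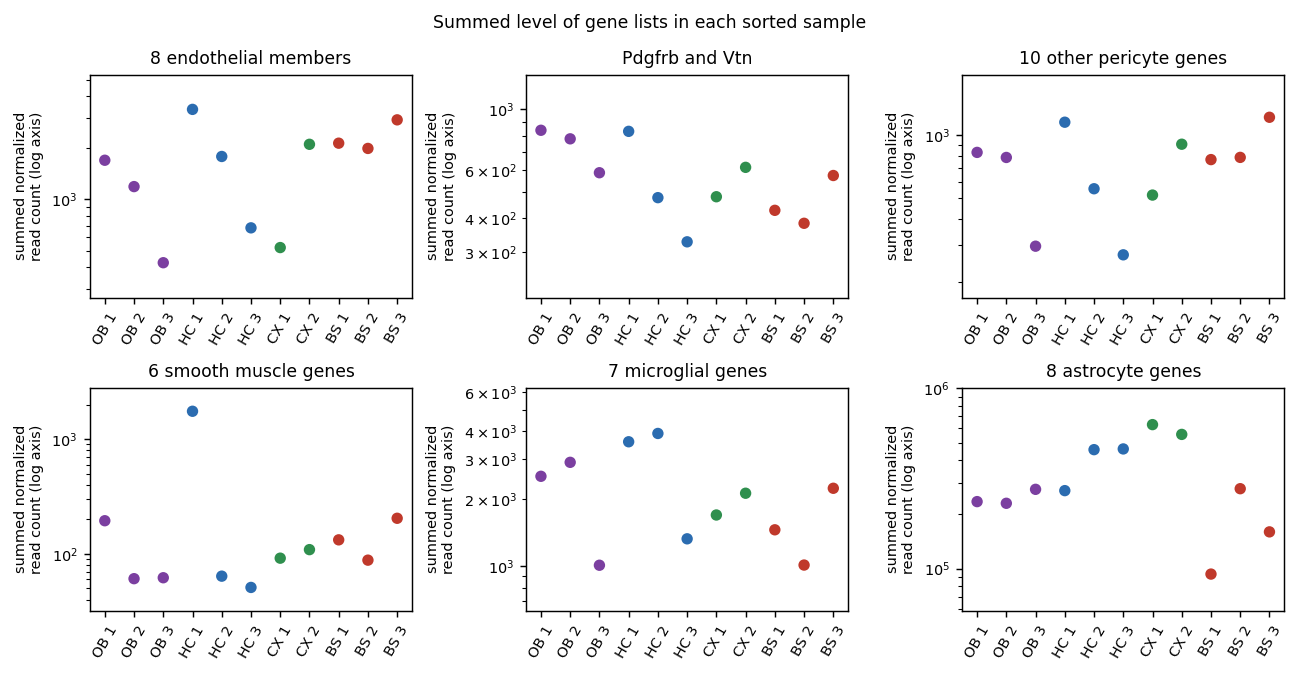
Summed normalized read counts (log axes) of the 8 endothelial genes, of Pdgfrb and Vtn, of 10 other pericyte genes, of 6 smooth muscle genes, of 7 microglial genes and of 8 astrocyte genes in each sample. The endothelial sum runs from 425 to 3362 and falls in the third OB, the third HC and the first CX samples, as do the sums of the 10 other pericyte genes (4 of the 10 singly) and of the microglial genes (7 of 7), whereas the astrocyte sum does not and the smooth muscle sum is at 1747 in the first HC sample alone. Of all genes tested, 9.45% are lowest in those 3 samples.

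Other genes of endothelium were examined from lists of surface proteins, junctions, transporters and transcription factors. Of 15 further receptors and surface or secreted proteins, 14 were lowest in the third HC sample, 13 in the third OB sample and 12 in the first CX sample, and 10 in all of these, as were 9.45% of all genes. None of the 15 was called by limma, where between 1.28% and 9.03% of all genes were called in a region and 16.5% among regions. Ptprb, the vascular endothelial phosphatase that acts on Tek, had the highest mean value in the list (values of the lists are not per length) and ran from 147 to 1673. Eng, the endothelial TGF-beta co-receptor, ran from 22.1 to 250.5. Plvap, a protein of fenestrated vessels that mature barrier endothelium lacks, stayed between 4.01 and 10.52 and had an r of 0.07 with the endothelial mean. Of 8 endothelial transcription factors, among which Ets1 was highest, 7 shared the 3 low samples. Erg alone, an ETS factor, was called as lower in the OB, with a mean of 17.6 against 59.6 (adjusted p = 0.09719 from limma). In the OB limma called 8.04% of all genes. Erg was also called with DESeq2 (unadjusted p = 0.005049) but not with edgeR (unadjusted p = 0.02107).

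Junction and transport genes followed the endothelial mean to different degrees. Cdh5 (VE-cadherin), Esam, Slc2a1 (the glucose transporter of the barrier), Abcb1a and Abcg2 (efflux pumps) had an r between 0.88 and 0.96 with the endothelial mean. Tjp1, Jam2, Mfsd2a and Tfrc had an r between -0.39 and -0.27, and Jam2, the highest of the junction list, had values between 1986 and 5635. Slc2a1, the highest of the transport list, ran from 329 to 1785 and was lower in the OB than in the BS (656 against 1567, adjusted p = 0.01247 from limma). Tfrc, the transferrin receptor, was called as lower in the OB, at 323 against 865 elsewhere (adjusted p = 0.003383 from limma), and Slc16a1, a lactate transporter, as higher (407 against 267, adjusted p = 0.09624). Slc38a5, a glutamine transporter, was called as higher in the BS, where it had 19.97, 10.02 and 84.2, against 9.20 or less elsewhere (adjusted p = 0.05263 from limma). Ocln and Cgnl1, 2 of 6 junction genes, differed among the regions (adjusted p = 0.01197 and 0.00956 from limma), as did 16.5% of all genes, and Cgnl1 was called as lower in the CX (54.0 and 78.2, adjusted p = 0.2471).

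Arterial and venous genes had median r values of 0.38 and 0.13 with the endothelial mean. Efnb2, the arterial ligand ephrin-B2, was called as higher in the OB, at 198, 149 and 223 against 88.9 or less in every other sample (adjusted p = 0.004574 from limma), and its r with the endothelial mean was -0.25. Gkn3, another arterial gene, had 61.8 in the first HC sample and 8.69 or less in the rest. Vcam1, an adhesion molecule, was called as lower in the OB (411 against 950.4, adjusted p = 0.005262 from limma), and Nr2f2, a venous identity factor, as lower in the CX (174 against 424, adjusted p = 0.2093 from limma). Vcam1 had an r of -0.44 with the endothelial mean and Nr2f2 one of 0.21. Of all genes, limma called 8.04% in the OB and 2.77% in the CX. Among 4 regions, Efnb2, Nr2f2 and Vcam1 differed at an adjusted p of 0.001326, 0.005856 and 0.0002717 from limma, as did 16.5% of all genes at 0.05.

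Ligands of these receptors were measured in the same bulk samples. Vegfa, a ligand of Flt1 and Kdr, and Vegfb, a ligand of Flt1, had region means between 356 and 484 for Vegfa and between 334 and 549 for Vegfb. Pgf, which binds Flt1, ran from 5.14 to 34.4, and Vegfc, a ligand of Flt4 and Kdr, from 15.8 to 67.9. Angpt1, the activating ligand of the Tek receptor, was called as lower in the CX, at 70.4 and 110.4 against between 118 and 417 elsewhere (log2 fold change -1.63, adjusted p = 0.1809 from limma), and it differed among the regions (adjusted p = 0.01308). Angpt2, the context-dependent antagonist, was listed at 0 and 4.6 in the CX samples, on 3 reads in all. It was also called as lower with limma (adjusted p = 0.3258), but not with edgeR (unadjusted p = 0.03312) or DESeq2 (unadjusted p = 0.01418). Of the Pdgfrb ligands, Pdgfb had 99.9 in the first HC sample and 45.2 or less in the others, and Pdgfd was called as lower in the CX (16.3 and 73.6, adjusted p = 0.2423 from limma) and differed among the regions (adjusted p = 0.02772). Angpt1, Angpt2 and Pdgfd were 3 of 8 ligands called in the CX by limma, where 2.77% of all genes were called. None of the 3 passed at an adjusted p under 0.05 from limma. Of the 8 ligands 1, Pdgfb, had an r over 0.7 with the endothelial mean (0.79), and Vegfa had -0.59.

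Further pericyte genes were examined beside Pdgfrb and Vtn. Of the 8 in a list of 10 that passed the filter, 5 had an r over 0.7 with the endothelial mean. Rgs5, a pericyte signalling regulator and the highest of the list, had 302, 253 and 57.6 in the OB, 542, 186 and 58.7 in the HC, 269 and 526 in the CX pair, and 284, 196 and 438 in the BS, with an r of 0.95. Notch3, the receptor of mural cells, was called as lower in the HC (63.7 against 142, adjusted p = 0.4445 from limma) and differed among regions (adjusted p = 0.01973 from limma). Kcnj8, a potassium channel, was called as lower in the CX (0 and 4.6, on 3 reads in all, adjusted p = 0.347 from limma). Ndufa4l2 and Higd1b did not pass the filter and were listed at 0 in 6 samples each, with highest values of 9.46 and 14.4.

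Smooth muscle genes set the first HC replicate apart. Acta2 was at 522 there and at 41.3 or less in the 10 other samples, and Myh11 was at 593 against 46.3 or less. Cnn1 was listed at 0 in all samples but that one, where it had 16.2. All 6 smooth muscle genes and all 10 further pericyte genes were highest of the HC in this sample, as were 35.5% of all genes tested. Cnn1, Higd1b and Ndufa4l2 among them did not pass the filter, and Ndufa4l2 had only 4 reads in the HC. The first HC sample also had the highest endothelial sum.

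Among all other genes tested, those with the pattern most like the endothelial mean over 11 samples, with region means removed, were Eng (r of 0.98), Hmha1 (0.98), Mndal (0.98), Calcrl (0.98), Ly6a (0.97), Ptprb (0.97), Adgrf5 (0.96), Slc6a6 (0.96) and Cd93 (0.96). Of these 9, 4 were in the endothelial surface list (Eng, Ly6a, Ptprb and Cd93). The 5 genes most like the mean of Pdgfrb and Vtn were Inpp5k (0.97), Trim21 (0.96), Filip1l (0.95), Fgl2 (0.95) and Ppp2r2c (0.95), and none of them was in a list. These genes share the libraries with the ones they resemble, and no test was run on the ranking.

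**Figure D5:**
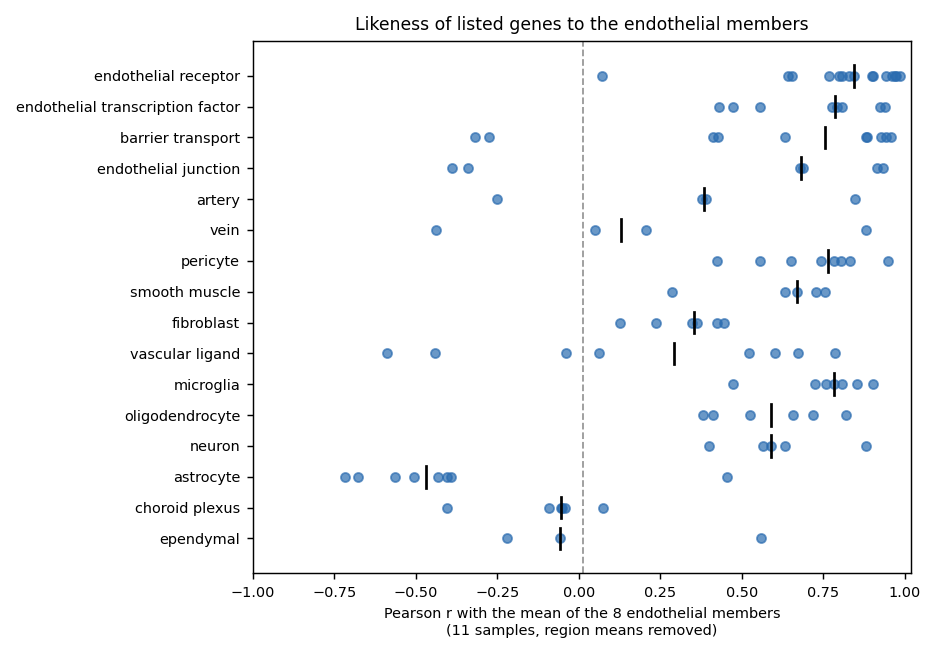
Pearson r of each listed gene with the mean of the 8 endothelial genes, over 11 samples with region means removed, by list. Points are genes, vertical bars are list medians and the dashed line is the median over all genes tested (0.01), and the medians run from 0.85 for endothelial receptors to -0.47 for astrocyte markers.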

How the data were processed

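RNA of FACS-isolated astrocytes (11 samples, 4 regions) was amplified with a kit that removes rRNA and sequenced in pairs of 75-base reads. The authors aligned reads to mm10 with STAR (2.5.0a), counted them on UCSC transcripts and divided them by DESeq2 (1.20.0) size factors, so the deposited values are a normalized signal per gene. All nonzero values were whole multiples of 1 read (tolerance 0.001 reads), and reads were recovered from these steps. Genes were filtered on recovered reads (filterByExpr in edgeR 4.0.16) and 13875 were tested with limma (3.58.1, trend) on log2(value + 1), with Benjamini-Hochberg adjustment, in R 4.3.3. Fold changes are on that scale, which understates those of low genes. Alternatives were edgeR, DESeq2 (1.42.0), no filter, a pseudocount of 0.25, TMM scaling, a replicate block, other call rules, a mean for each region and leaving out each replicate. On simulated data with 3-fold changes in the BS, limma called 142 of 191 changed genes and 118 unchanged ones among 13429. The changed genes were drawn at random from all genes tested, whose median standard deviation within regions was 0.45. That of the 8 endothelial genes was 1.04, so this rate does not carry over to them. The 10 genes and the lists were chosen with earlier results of these data known. Of listed genes, those called in a comparison, those with the highest mean in a list and all ligands could be named, together with the 10 and 5 genes most like the endothelial and pericyte means, of which 1 is not reported here. Eng, Plvap, Cdh5, Esam, Abcb1a, Abcg2, Tjp1, Mfsd2a, Gkn3, Acta2, Myh11, Cnn1, Lum and the genes that missed the filter were singled out after their values were seen.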

Additional observations from a re-analysis of the deposited data

How the results depend on the processing

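In the BS, 1 of the 10 genes (Pdgfrb, lower) was called with edgeR, with DESeq2, with no filter on low counts, with TMM scaling and with a mean for each region in place of pooled samples, against 0 with limma as reported. In the OB, 1 (Vtn, higher) was called with a mean for each region. Between pairs of regions the count of 1 became 0 with edgeR, 0 with no filter and 0 with a pseudocount of 0.25, and it became 2 with DESeq2 (Vtn higher in the OB than in the CX, and Pdgfrb) and 3 at an unadjusted p under 0.01 with a fold over 1.5 (these and Slco1a4, OB against BS). Leaving out 1 replicate at a time gave 0 to 2 genes called for the OB, 0 to 0 for the HC, 0 to 0 for the CX and 0 to 1 for the BS, with 0 to 3 differing among the regions and 0 to 4 comparisons between pairs. The highest counts came without the first CX replicate (OB), without the second CX replicate (among regions: Slco1a4, Kdr and Vtn) and without the first HC replicate (pairs). Without the first HC replicate Vtn, and without the third HC replicate Pdgfrb, also differed among regions. Of 720 values for single genes, 707 were not called, as reported, and 13 moved past the threshold. The sign changed in 37 of the values that were not called. The cause of these changes was not tested.

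The labels do not say whether same-numbered samples of different regions came from the same animal, and these correlations cannot decide it. Deviations of same-numbered samples correlated between -0.16 and 0.25 over 15 pairs (median 0.02), with 3 over 0.1. Those of differently numbered samples correlated between -0.22 and 0.18 over 30 pairs (median -0.003), with 5 over 0.1. With the replicate number as a block, 1 comparison between pairs of regions passed, Slco1a4 in the OB against the BS, in place of Pdgfrb, and 0 of the 10 genes were called in any region.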

Other observations

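Fibroblast genes were high in a BS sample. Dcn, a matrix proteoglycan, was at 1667 in the first BS replicate and at 299 or less in the other samples, and Lum, another proteoglycan, was at 283 there and at 41.2 or less elsewhere. The endothelial sum of that sample was 2131, between the other BS samples at 1985 and 2919. Col1a2, a fibrillar collagen chain, was called as higher in the BS (399.9 against 80.9, adjusted p = 0.0014 from limma). Igf2, the highest of the 6 genes in the fibroblast list, was called as lower in the OB (227 against 2263, adjusted p = 0.03802 from limma). By region mean Igf2 ranked BS (3316), HC (2472), CX (367), OB (227). The choroid plexus markers ranked alike, except that Kl had the HC above the BS. All other genes of the fibroblast list had a higher mean in the OB than in the CX. Which cells the Igf2 reads came from was not tested. Of 5 erythrocyte genes, the 4 haemoglobin genes Hbb-bs, Hbb-bt, Hba-a1 and Hba-a2 were listed at 0 in all 11 samples. Alas2, the remaining gene, had reads in all 11 samples, with values between 4.57 and 42.1. Why the haemoglobin genes were at 0 was not tested.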
